A study of Mus musculus with 117 samples.

Results

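Carboxylesterases are enzymes of the endoplasmic reticulum that split ester and amide bonds in drugs, toxins and lipids. Mice carry many copies of these genes in tandem clusters on chromosome 8, where people have only a few counterparts, and the liver is a main site of their expression. The enzymes of the Ces1 group include hydrolases of stored triacylglycerol and an esterase released into plasma, while those of the Ces2 group act on smaller acyl groups, drug esters and glycerides, also in the intestine.

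Chromatin states over 10 of these genes were compared between hepatocytes, the main cells of the liver, of 9 inbred mouse strains. The genes were chosen by name: Ces1b, Ces1c, Ces1d, Ces1e, Ces1f, Ces1g, Ces2a, Ces2c, Ces2e and Ces3a, which are 10 of 20665 protein-coding genes on chromosomes 1 to 19. Each gene was taken with 2 kb on either side, which gave 1261 distinct bins of 200 bp out of 12313718 on these chromosomes. The other 10 genes of the family in the RefSeq table, 9 of them protein-coding, serve as neighbours for comparison. Mice were untreated as far as the labels say, all female and 12 weeks old, of the strains 129S1/SvImJ, A/J, C57BL/6J, DBA/2J, NOD/ShiLtJ and NZO/HlLtJ and the wild-derived CAST/EiJ, PWK/PhJ and WSB/EiJ. Each strain had chromatin immunoprecipitation libraries for H3K4me1, H3K4me3, H3K27ac and H3K27me3 from 3 mice and 1 input library, 117 libraries in all. The deposited data are 1 segmentation per strain, in which each bin carries the number of 1 of 14 chromatin states. The marks behind each number are not given in the sources used here, so the numbers are used only as names.

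A strain is 1 value throughout, every SD is over the 9 strains, and no error within a strain can be given. Read depth is unknown. The autosomes as a whole had 76.6% of their bins in state 14 and 11.1% in state 13. States 1 to 4 each covered between 0.410% and 2.73%. These 4 states were chosen because they were already known to be frequent at the ends of hepatocyte genes in these segmentations. The percentage of a gene's bins in any of them is called its share of states 1 to 4. Marker genes of liver cell types were read beside the cell type label, with 45.0% of all protein-coding genes called above the autosomal share. That share was exceeded by all 12 hepatocyte markers, with a median of 98.6%, but since the states were chosen for hepatocyte genes this is no independent check. It was exceeded by 0 of 6 stellate cell markers, by 1 of 6 Kupffer cell markers found of 7 listed, by 1 of 5 bile duct markers, and by 4 of 7 endothelial markers, a count near the background. The highest of the last were Lyve1 at 85.5% ± 12.0 and Stab2 at 34.9% ± 14.8 (SD, n = 9), and the part of endothelial cells in the values below was not tested.

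The genes lie in 2 runs on chromosome 8 (GRCm38). The first run spans 515.7 kb, from 93020214 to 93535879, and holds the 6 Ces1 genes described here with Ces1a, Ces1h and Ces5a. The second run spans 416.1 kb, from 104734003 to 105150109, and holds Ces2a, Ces2c, Ces2e and Ces3a with 6 other protein-coding Ces genes. No protein-coding gene outside the family lies within either run. The copies are similar in sequence, how reads that fit several copies were placed is not given in the sources used here, and the assignment of a state to 1 copy is uncertain to that extent.

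RefSeq promoter sequences (GRCm38.p6) were found for 7 of the 10 genes and not for Ces1d, Ces1f and Ces3a. The 250 bases before the start of 5 of them are shown because the states around these starts are compared below. Within 1 kb to either side of the start, Ces1c had state 3 in every strain, Ces1b in 1, and the others in none. That window is wider than the bases shown, and state 3 need not lie on them. They are the reference sequence of C57BL/6J, not of the other strains, written 5′ to 3′ along the gene's strand, with each CpG dinucleotide in capitals. Among these 7 promoters, Ces1b and Ces1c form the most alike pair of the first run, and Ces2a and Ces2c that of the second. Other genes of the family were not aligned. Ces1e and Ces2a have no CpG in the bases shown. The 5 stretches lie at chr8:93080018-93080267, chr8:93131284-93131533 and chr8:93229620-93229869, all on the minus strand, and at chr8:104733753-104734002 and chr8:104846818-104847067, on the plus strand.
Ces1b: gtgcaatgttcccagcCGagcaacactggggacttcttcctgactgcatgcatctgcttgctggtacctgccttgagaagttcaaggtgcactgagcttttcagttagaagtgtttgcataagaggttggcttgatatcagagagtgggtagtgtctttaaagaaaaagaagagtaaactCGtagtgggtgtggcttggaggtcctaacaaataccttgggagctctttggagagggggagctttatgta
Ces1c: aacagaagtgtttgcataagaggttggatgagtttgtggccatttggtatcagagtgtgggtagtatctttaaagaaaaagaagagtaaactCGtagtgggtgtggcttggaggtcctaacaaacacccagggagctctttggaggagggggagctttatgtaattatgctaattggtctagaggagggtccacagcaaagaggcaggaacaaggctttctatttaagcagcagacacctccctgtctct
Ces1e: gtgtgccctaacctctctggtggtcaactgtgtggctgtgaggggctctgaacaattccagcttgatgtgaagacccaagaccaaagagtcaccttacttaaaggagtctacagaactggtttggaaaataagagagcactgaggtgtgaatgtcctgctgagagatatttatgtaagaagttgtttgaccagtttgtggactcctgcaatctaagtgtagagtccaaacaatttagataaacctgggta
Ces2a: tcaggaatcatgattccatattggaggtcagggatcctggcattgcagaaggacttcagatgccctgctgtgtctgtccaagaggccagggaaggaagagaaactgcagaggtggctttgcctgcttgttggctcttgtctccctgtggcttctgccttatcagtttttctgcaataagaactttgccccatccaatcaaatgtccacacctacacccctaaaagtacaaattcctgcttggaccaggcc
Ces2c: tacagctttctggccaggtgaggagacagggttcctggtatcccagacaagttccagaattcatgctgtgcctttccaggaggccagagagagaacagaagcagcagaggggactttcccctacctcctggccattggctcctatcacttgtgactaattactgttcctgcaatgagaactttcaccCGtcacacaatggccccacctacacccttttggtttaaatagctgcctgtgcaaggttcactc

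The letters show how few CpG these starts hold. Over 300 bases, the 250 shown and the next 50, the 7 promoters held between 0 and 2 CpG, with a median of 1, against a median of 14 over all 16457 promoters. Only 3062 promoters, 18.6%, held at most 2. Ces1b and Ces1c were 78.6% identical in a global alignment, for which the more downstream start site of Ces1b was used, while the sequence above lies before the upstream one. Ces2a and Ces2c were 66.9% identical, Ces2a and Ces2e 58.7%, and the other 18 pairs between 47.1% and 55.8%. The sequence TTGCNNAA, which holds letters common in sites of C/EBP factors, was present in 4 of the 7 on either strand (Ces1b, Ces1c, Ces2a and Ces2e) and in 10.3% of all promoters. AGGTCA, the nuclear receptor half-site, was present in Ces2a alone and in 14.4% of all promoters. TATAAA was in none of the 7 and in 9.08% of all. CAAAGTCCA for HNF4, TGTTTAC for FOXA factors, the HNF1 palindrome and a direct repeat of the half-site with 1 base between the copies were in none of the 7 and in 0.431%, 2.96%, 0.0% and 0.0486% of all. Such a match describes the letters in this window and is not a bound site.

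Every one of the 10 genes had more of its bins in states 1 to 4 than the autosomes had, in each of the 9 strains. The median share over the 10 genes was 77.4%, against 8.13% over all protein-coding genes. Each difference was called by an exact permutation test that flips the signs of the 9 strain differences, two-sided (Benjamini-Hochberg adjusted p = 0.00477 over 20665 genes). That is the smallest adjusted p found for any gene, since 9 strains give 512 sign patterns. This was a common outcome: 45.0% of all protein-coding genes were called higher by the same rule and 45.4% lower. The states were chosen for hepatocyte genes in these same segmentations, so for genes expressed in liver these calls are no independent check either. State 1 covered 29.8% ± 4.16 of the bins of the 10 genes, against 2.51% of the autosomes, and state 2 covered 31.4% ± 3.69 against 2.30%. State 4 covered 15.1% ± 4.66 and state 14 covered 16.04% ± 4.79 (SD, n = 9). State 13, which holds 11.1% of the autosomes, was at 0 bins in these genes in every strain.

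Ces1b and Ces1f had the highest levels. For Ces1b the share of states 1 to 4 ran from 94.2% over a median of 99.3% to 100% across the strains (mean 98.1% ± 2.43 SD, n = 9). For Ces1f, a lipid hydrolase, it ran from 93.5% in A/J over a median of 98.6% to 100% (mean 97.9% ± 2.39). The strains overlapped fully between these genes, with Ces1b the higher in 4 of 9. Ces3a followed with a lowest value of 84.1%, a median of 85.2% and a highest of 100% (mean 90.5% ± 7.39). Its 100% values were in A/J and NZO/HlLtJ, and its lowest in CAST/EiJ, DBA/2J and WSB/EiJ. In the lowest strains a run of state 14 covered chr8:105061201-105064000. Most of that run is padding, since the gene ends at 105061928.

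Ces1d encodes triacylglycerol hydrolase, which supplies lipid for the assembly of very-low-density lipoprotein. Its share was 73.3% in A/J, 80.0% at the median and 92.2% in 129S1/SvImJ (mean 81.6% ± 5.93, n = 9), below Ces3a in 9 of 9 strains. Ces1c encodes the esterase secreted into mouse plasma. Its share was 67.0% in DBA/2J, 75.3% at the median and 80.8% in NZO/HlLtJ (mean 74.7% ± 5.17). Neither gene had a strain far from the others. Ces1e, known as egasyn, holds beta-glucuronidase in the endoplasmic reticulum. Its share was 51.5% in PWK/PhJ, 67.5% at the median and 77.9% in 129S1/SvImJ (mean 66.3% ± 9.38), and it was under Ces1c in 8 of 9 strains.

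Ces1g and Ces2a had the widest spread. Ces1g, a hydrolase whose loss raises liver fat in mice, had 54.1% in PWK/PhJ, 86.7% at the median and 95.9% in CAST/EiJ (mean 78.5% ± 17.5, n = 9). Its strains fell into separate ranges: NOD/ShiLtJ at 55.1%, PWK/PhJ at 54.1% and WSB/EiJ at 58.7% lay under the other 6, which ran from 80.6% to 95.9%. Ces2a, a glyceride hydrolase, had 27.1% in PWK/PhJ, 81.4% at the median and 100% in 129S1/SvImJ (mean 76.3% ± 21.1). The 8 strains other than PWK/PhJ lay between 62.7% and 100%. The gap below them took 0.488 of the whole range, just under the Dixon limit of 0.493 for 9 values.

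Ces2c and Ces2e stood at the bottom of the order. Ces2c, a hydrolase of acylcarnitines and glycerides, had 20.7% in WSB/EiJ, 32.8% at the median and 50.0% in C57BL/6J (mean 33.3% ± 8.62, n = 9). Ces2e, which takes part in pyrethroid hydrolysis, had 23.8% in DBA/2J and NZO/HlLtJ, 30.2% at the median and 42.9% in CAST/EiJ (mean 31.0% ± 6.83). The step from Ces1e down to Ces2c was 32.9 percentage points ± 11.0 and had the same sign in 9 of 9 strains. The neighbours Ces1d and Ces1g, Ces1g and Ces2a, Ces2a and Ces1c, and Ces2c and Ces2e differed by 1.55 to 3.15 points, with SDs of 10.1 to 18.5, so their order did not exceed the spread.

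**Figure D1:**
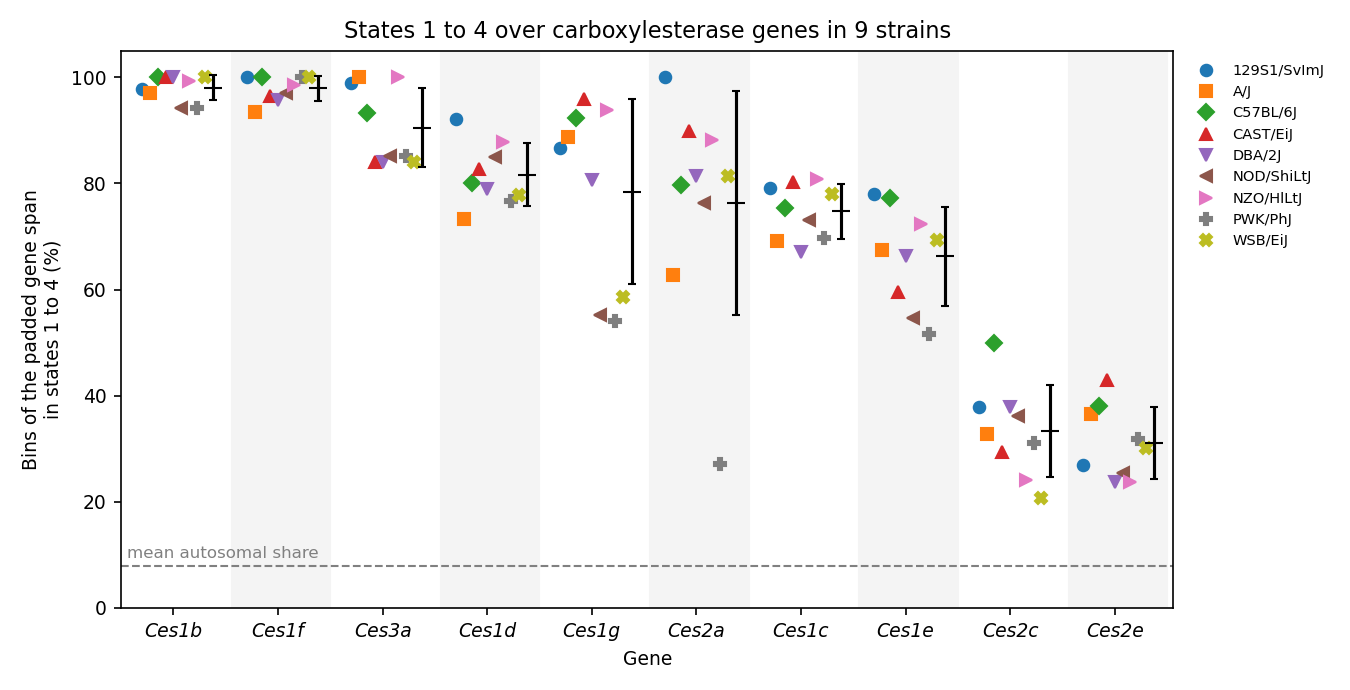
Share of bins in states 1 to 4 (percent, vertical axis) for each gene, ordered by mean. Each marker is 1 strain, the bars are the mean and SD over 9 strains, and the dashed line is the mean autosomal share. PWK/PhJ lies at 27.1% for Ces2a, and NOD/ShiLtJ, PWK/PhJ and WSB/EiJ lie between 54.1% and 58.7% for Ces1g.

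The starts of the genes were compared by state 3, and they differed. The start window was 1 kb to each side of the start. For the 3 genes without a strand in the tables, Ces1d, Ces1f and Ces3a, it covered both ends. State 3 was present in the window in all 9 strains for 1 of the 10 genes, Ces1c, where the background over all protein-coding genes was 40.3%. It was present in no strain for 5 genes, Ces1e, Ces1g, Ces2a, Ces2c and Ces2e, where the background was 47.8%, so that 5 of 10 is near the share over all genes. In between, Ces1d had it in 7 strains, Ces1f in 6, Ces3a in 3 and Ces1b in 1. The 5 without it are all among the 7 with a known strand, for which the backgrounds were 41.1% in all strains and 47.5% in none. Genes with a share above the autosomal one seldom lacked state 3, with 15.0% of 7509 having it in no strain. A start window led by states 1 to 4 in every strain with no state 3 in any was found in 1.49% of the 16457 genes with a strand and in the same 5 of these 7. Among the other genes of the family, Ces3b and Ces2g had such a window too, so it was not particular to the genes described.

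State 1 held the most bins of the start window in 9 of 9 strains for Ces1b, Ces1e, Ces2a and Ces2e, and in 8 of 9 for Ces1c, Ces1g and Ces2c. The exceptions were NOD/ShiLtJ, where state 3 led at Ces1c, CAST/EiJ, where state 2 led at Ces2c, and PWK/PhJ, where states 1 and 2 tied at Ces1g. In the windows over both ends, state 1 led alone in 5 strains at Ces3a, in 1 at Ces1f and in 0 at Ces1d, where state 2 led in 8. In the bin that holds the start of the 7 genes with a strand, state 1 was found in 96.8% of the 63 pairs of gene and strain and state 3 in 1.59%. Over all 16457 genes with a strand, state 1 was in that bin in 12.1% and state 3 in 35.2%. The class of states that led the window did not change between strains for any of the 10 genes, against 22.7% of all genes.

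**Figure D2:**
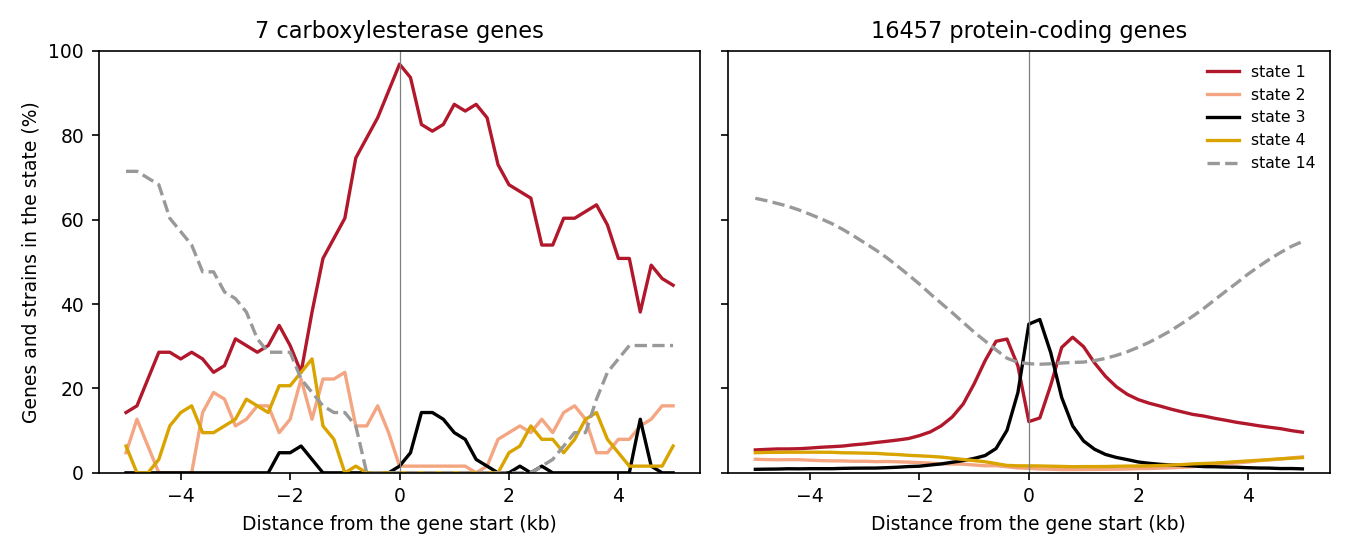
Percentage of genes and strains (vertical axis) in each state by distance from the gene start (kb, horizontal axis, positive into the gene), for the 7 carboxylesterase genes with a known strand and for all 16457 genes. At distance 0 state 1 reaches 96.8% on the left, while state 3 has its peak near the start on the right.

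The length of the longest state 1 segment that overlapped the start window differed by gene. Among the genes with a strand, this segment did not always hold the start itself. It lay beside the start at Ces1c in 129S1/SvImJ, NOD/ShiLtJ, PWK/PhJ and WSB/EiJ, at Ces2c in A/J and CAST/EiJ, and at Ces1g in PWK/PhJ. The length was 1800 to 3200 bp at Ces2e, 800 to 2400 bp at Ces2c and 2200 to 5800 bp at Ces2a over the 9 strains. At Ces1b it was longer, with a lowest value of 2400 bp, a median of 11200 bp and a highest of 11600 bp. At Ces1e it had a median of 10000 bp, from 2400 to 11200 bp, and at Ces3a a median of 11800 bp, from 3600 to 15200 bp. At Ces1c the median was 4200 bp, at Ces1d and Ces1g 5200 bp, and at Ces1f, whose share of states 1 to 4 was among the highest, 2600 bp. At Ces2c and Ces2e the span was mostly state 14, which covered 60.3% ± 4.56 of Ces2c and 58.6% ± 4.66 of Ces2e.

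State 3 occurred at 13 sites within the padded spans of the 10 genes, of which 7 were in 1 strain, 2 in 3 or 4 strains and 4 in 7 or more. At Ces1c it lay between chr8:93129801-93131400, mostly just inside the gene, as a segment of 400 to 1400 bp in all 9 strains, shortest in PWK/PhJ and longest in NOD/ShiLtJ and NZO/HlLtJ. At Ces1g it was absent from the start, but 1 bin 4.21 to 4.41 kb into the gene, chr8:93332801-93333000, was in state 3 in 8 strains, all except NOD/ShiLtJ. At Ces1b, whose promoter was the most like that of Ces1c among those aligned, state 3 lay outside the gene in A/J, CAST/EiJ, NOD/ShiLtJ and NZO/HlLtJ, 1.58 to 2.18 kb before the start. CAST/EiJ alone had 3 more bins of it within Ces1b. At the right-hand ends of Ces1d and Ces1f it was found in 7 and 8 strains, and CAST/EiJ lacked it at both. Ces3a had it in 3 strains, CAST/EiJ, NZO/HlLtJ and PWK/PhJ, Ces1e in 1 bin of CAST/EiJ and Ces2a in 1 bin of NZO/HlLtJ. Ces2c and Ces2e had no bin of state 3 in any strain.

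The CpG content of the promoter and state 3 were tied over the whole gene set, as a description. Among the 3062 promoters with at most 2 CpG, as in these genes, 91.1% had state 3 at the start in no strain and 3.59% in all 9. Among the 13395 with more, the figures were 37.5% and 49.7%. Within the genes above the autosomal share, 421 had such CpG-poor promoters, of which 51.1% had state 3 in no strain and 22.1% in all 9. For the other 7088 these were 12.9% and 73.2%. Ces1c, with 1 CpG and state 3 in every strain, belonged to the smaller group.

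**Figure D3:**
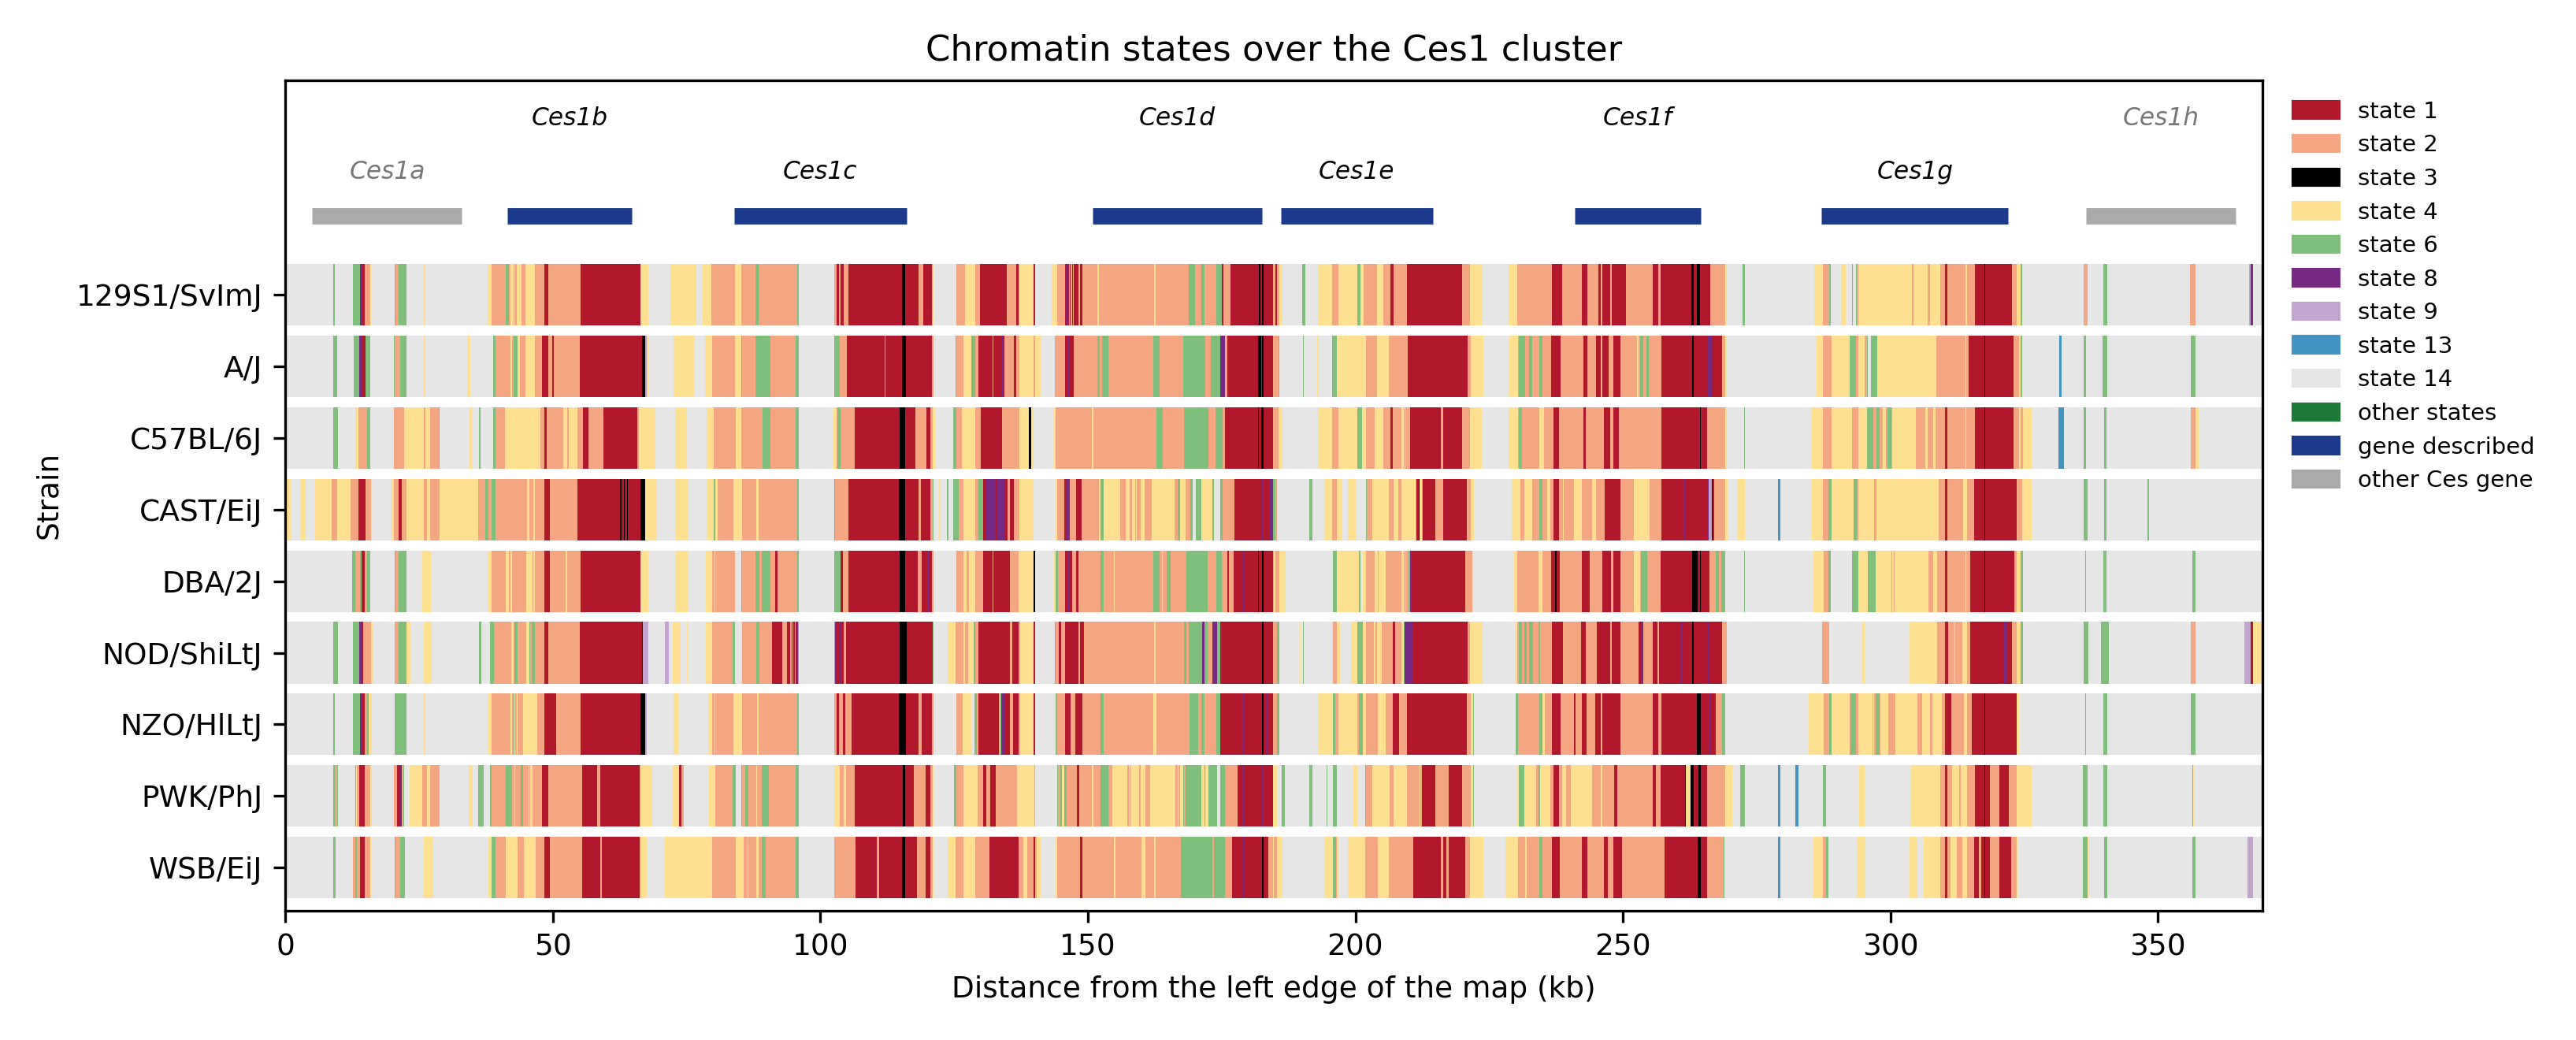
States of every bin over the Ces1 run from Ces1a to Ces1h, without Ces5a (kb from the left edge, horizontal axis) in the 9 strains, with the genes drawn above. Ces1b to Ces1g are covered mainly by states 1, 2 and 4, Ces1h is in state 14, and the left part of Ces1g is grey in NOD/ShiLtJ, PWK/PhJ and WSB/EiJ.

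The strains differed over the 10 genes in where the stretches outside state 14 ended and which state filled them. Of the 1261 bins, 442 (35.1%) had the same state in all 9 strains and 847 the same class. For each gene, disagreement is the percentage of bins in different states, averaged over the 36 strain pairs. Its median over the 10 genes was 25.7%, against 20.1% over all protein-coding genes. Over the bins outside state 14 in at least 1 strain it was 35.7% against 34.9%. Ces2a had the highest value, 46.9%, at the 97.3 percentile of all genes, followed by Ces1g at 40.4% and the 92.9 percentile. Ces1c, at 18.1% and the 44.1 percentile, was the lowest. The 2 states most often exchanged between strains were 2 and 4, with 24.2% of the differing pairs of bins, then 1 and 2 with 21.0% and 4 and 14 with 19.2%.

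**Figure D4:**
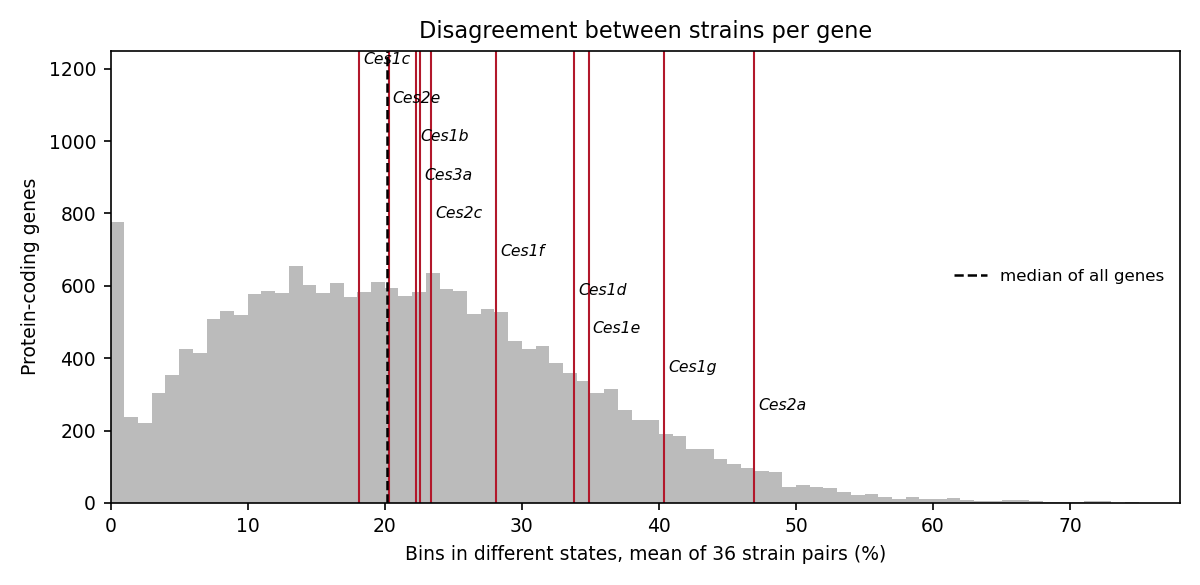
Histogram of all 20665 protein-coding genes by disagreement (percent of bins in different states, mean of 36 strain pairs, horizontal axis). Red lines are the 10 carboxylesterase genes, from Ces1c at 18.1% to Ces2a at 46.9%, and the dashed line is the median of all genes, 20.1%.

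Ces2a showed the sharpest difference. In PWK/PhJ 61.0% of its bins were in state 14, against 0% to 6.78% in the other 8 strains. The state 14 bins of PWK/PhJ formed 1 run of 7200 bp, chr8:104736601-104743800, which takes up the 3′ part of the gene and the padding after it. At the start PWK/PhJ had 2200 bp of state 1. Of the 36 bins of that stretch, state 14 held 0 to 4 in the other strains. There state 2 held 24 bins in 129S1/SvImJ, state 4 held 20 in CAST/EiJ, and states 6 and 8 held 14 and 6 in A/J.

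Ces1g differed in 3 strains. State 14 covered 42.9% of its bins in NOD/ShiLtJ, 43.9% in PWK/PhJ and 40.3% in WSB/EiJ, against 0.51% to 11.7% in the other 6. The longest stretch that split the strains in this way was 3400 bp, chr8:93315401-93318800, in states 1 to 4 in 6 strains and in state 13 or 14 in these 3. A further 1400 bp at chr8:93313201-93314600 split the same strains. State 4 covered 18.9% to 26.5% of Ces1g in the 3 strains and 34.7% to 55.1% in the others. At the start state 1 held 5 bins of the window in PWK/PhJ, 6 in NOD/ShiLtJ and 8 in WSB/EiJ, and 9 to 11 in the others. In the class of states 1 to 4 WSB/EiJ did not stand apart there, with all 11 bins in it as in the other 6 strains. NOD/ShiLtJ had 3 bins of the window in state 8 and PWK/PhJ had 1. The longest state 1 segment that overlapped the window was 1000 bp long in PWK/PhJ and NOD/ShiLtJ, 2200 bp in WSB/EiJ, and 5000 to 5800 bp in the others. In PWK/PhJ this segment did not hold the start. NOD/ShiLtJ had a further state 1 run of 5200 bp within the gene. Over the whole span state 1 covered 19.4% in NOD/ShiLtJ, 11.7% in PWK/PhJ and 12.8% in WSB/EiJ, against 18.4% to 24.0% in the others.

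CAST/EiJ and PWK/PhJ shared a change within the class of states 1 to 4 at Ces1d and Ces1f. State 4 covered 35.6% of the Ces1d span in each of them and 0% to 4.44% in the other 7 strains, with state 2 at 29.4% and 24.4% against 49.4% to 67.2%. At Ces1f state 4 covered 19.6% and 20.3% in CAST/EiJ and PWK/PhJ, against 0% to 4.35%. WSB/EiJ, also wild-derived, lay with the other strains at both genes. Ces1b had more of state 4 in C57BL/6J, 35.5% against 2.17% to 18.1% elsewhere, and less of state 1, 28.3% against 41.3% to 48.6%. These differences left the share of states 1 to 4 of Ces1b and Ces1f at 94.2% or above in every strain but A/J, which had 93.5% at Ces1f.

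Ces1c had a stretch in state 14 in every strain. A run of state 14 began at position 93111201 in all 9 strains and was 6400 bp long in C57BL/6J and 6600 bp in the other 8, so that 32 bins within the gene were in state 14 throughout. On either side of it the gene was mostly in states 1 and 2. At Ces1e state 14 varied more with the strain, from 18.4% of bins in 129S1/SvImJ to 41.1% in PWK/PhJ, although 22 of its 163 bins were in state 14 in all 9. Bins in state 14 throughout were not particular to Ces1c. There were 32 of 63 at Ces2e and 22 of 58 at Ces2c.

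Over the 10 genes together, strain pairs differed in 29.5% of bins ± 7.08 (SD over 36 pairs). The closest pair was 129S1/SvImJ and NZO/HlLtJ at 17.6%, and the farthest was NZO/HlLtJ and PWK/PhJ at 45.4%. PWK/PhJ differed from the other 8 by 39.1% on average, against 25.4% to 33.1% for each of the others. It also differed most over the autosomes as a whole, at 19.3%. A state of its own, where the other 8 agreed, was found in 67 bins for PWK/PhJ, 40 for C57BL/6J and 5 to 29 for the remaining strains.

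**Figure D5:**
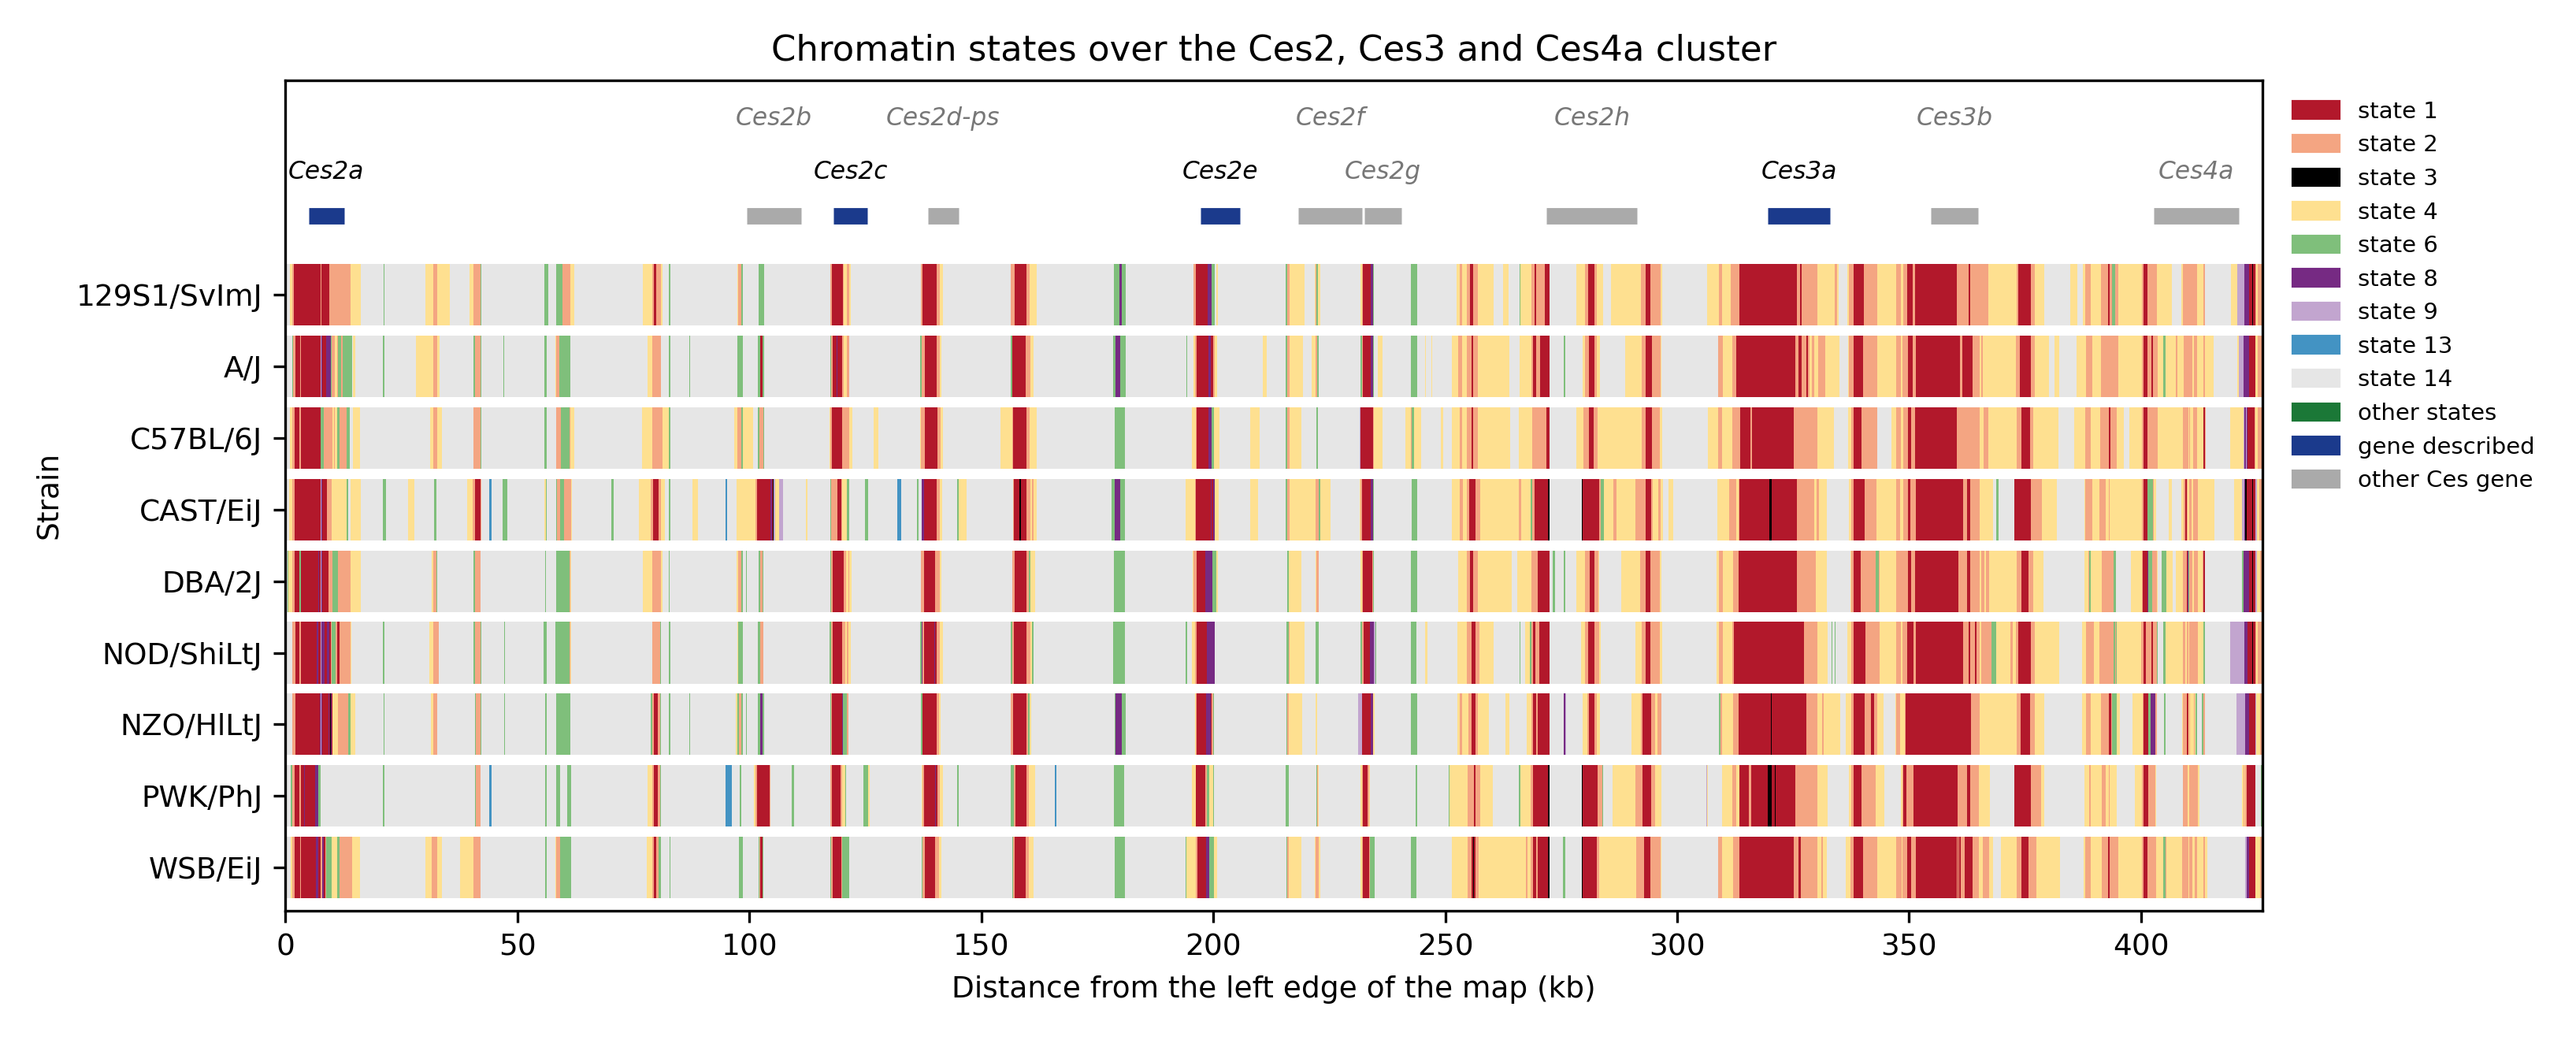
States of every bin over the run with the Ces2 and Ces3 genes and Ces4a (kb from the left edge, horizontal axis) in the 9 strains. Ces2c and Ces2e carry a short block of state 1 at the left end followed by state 14, Ces3a and Ces3b are marked almost throughout, and the right part of Ces2a is grey in PWK/PhJ.

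The other protein-coding genes of the family gave a wider range. Of 9, 6 were called higher, 2 lower and 1 neither by the same exact permutation test, against 45.0% higher and 45.4% lower over all genes. Ces3b was in states 1 to 4 in 100% of its bins in every strain. Ces2h had 58.6% ± 13.2, Ces4a 50.0% ± 15.9, Ces2f 33.5% ± 12.7, Ces1a 24.9% ± 24.3 and Ces2g 22.0% ± 10.01 (SD, n = 9). Ces1h had 1.53% ± 2.05 and Ces5a 0% in every strain, and both were called lower. Ces1a was highest in CAST/EiJ, at 83.1% against 6.25% to 35.6% in the others, and without this strain its mean was 17.6% ± 11.5, 9.74 points above the autosomes (unadjusted p = 0.0391, exact permutation test, higher in 6 of 8 strains). Ces2b, the gene not called (adjusted p = 0.343, exact permutation test), had 55.7% in CAST/EiJ and 2.53% to 24.1% elsewhere. Ces2g was highest in C57BL/6J, at 47.5% against 14.8% to 24.6%, and Ces2f in CAST/EiJ, at 62.2% against 13.3% to 35.6%. State 3 was in the start window of none of these 9 in all strains, and 8 of them had it in no strain, against 47.8% of all genes. The bin that holds the start was in state 1 in every strain at Ces3b, Ces2g and Ces2h.

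The share of states 1 to 4 in the genes beside the runs varied. On the left of the Ces1 run, Lpcat2 and Slc6a2 had 0.0978% and 0.147%, against a mean of 24.9% at Ces1a, the first gene of the run. On the right Gnao1 had 5.52%. The last genes of the run, Ces1h at 1.53% and Ces5a at 0%, lay below it, so the share did not drop at that edge. Around the second run the values were 0% for Rrad, 39.6% for Ciao2b, 12.3% for Cbfb and 29.3% for D230025D16Rik. Ciao2b, Cbfb and D230025D16Rik had state 3 at the start in all 9 strains, unlike 9 of the 10 carboxylesterase genes. Lpcat2 had it in 1 strain, and Slc6a2, Gnao1 and Rrad had it in none. Over all protein-coding genes, 40.3% had it in all 9 strains.

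Other enzymes that act on esters and lipids, and regulators of such genes, were set beside them, with the same 45.0% of all genes called higher as background. All 16 other esterases and lipases listed were called higher, with a median share of 55.8%, from 19.4% at Pon2 to 96.4% at Pon1, a paraoxonase. State 3 was at the start in all 9 strains in 7 of these 16 and in none in 4. All 14 regulators were called higher, with a median of 90.9%, from 56.0% at Ahr to 100% at Cebpa and Foxa2, and 12 of 14 had state 3 at the start in all 9 strains. Of the 12 hepatocyte markers, 10 did. Of 6 enterocyte markers 3 were called higher and 3 lower, a count near the background, from 0% at Lct and Sis to 78.8% ± 18.3 at Fabp2. Outside the family, the genes whose mean state shares were closest to the mean of the 10 were Grb2, Plekhg3 and Csnk1g2, at summed absolute differences over the 14 states of 10.5, 11.0 and 13.02 points over 9 strains.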

How the data were processed

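Strain labels set the groups, and the 9 segmentations were matched to strains through the same labels. Column 4 of each deposited segmentation is a category, the state number, which the authors give for intervals in steps of 200 bp. It is no count, signal or score. Per the submitters' processing notes the build was mm10, and FastQC 0.11.5 and MACS 1.4.2 were used. The segmentation tool, the aligner, the pooling of mice and any use of strain genomes are not given in the sources used here. A file that joins all strains was identical to the strain files laid end to end and was not used.

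Gene spans, and promoter sequences with strand for 79.6% of protein-coding genes, came from RefSeq tables of the same build (GRCm38.p6). Genes of chromosomes 1 to 19 were used, with 2 kb of padding. The share of states 1 to 4 minus the autosomal share of the same strain was tested per gene by an exact permutation test, two-sided, that flips the signs of the 9 strain differences (512 patterns, smallest p 0.0039), with Benjamini-Hochberg adjustment over 20665 genes and calls at an adjusted p under 0.05. Related strains are not independent samples, and whether the states were learned jointly is not given in the sources used here. Other results are descriptions. The code was tested on simulated data. The genes, lists, state class and tests were chosen with earlier results of these data known. Genes named are the 10, the rest of the family, the 2 nearest genes on each side of a run (1 is not reported here), up to 4 with the highest and lowest share from each list, and the 3 most alike in state shares. Alternatives covered padding, state class, comparator, shared bins, window, leading state, disagreement rule, chromosome X and each strain left out; state 1 alone and Ces1c without its state 14 bins were chosen after seeing the data, as were the looks at sites of state 3, at ties in the start windows, at the Ces2a stretch and at strains apart among other genes. The computation used matplotlib 3.10.9, biopython 1.88, scipy 1.17.1, pandas 2.3.3, numpy 2.4.6 and Python 3.11.15.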

Additional observations from a re-analysis of the deposited data

Results flagged for a closer look

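Sets of 9 strain values were checked for a strain apart from the rest by the Dixon limit of 0.493, over the genes named with a value whose strains differed and over summary values of the 10 genes. Chance flags about 1 in 20, or 2.05 of the 41 sets, and 7 passed. Among the 10 genes described, 0 passed by their own share of states 1 to 4. Over their bins together, state 8 covered 3.17% in NOD/ShiLtJ and 0.238% to 1.35% in the other 8 strains. Among other genes of the family, CAST/EiJ had the highest share of states 1 to 4 at Ces1a (83.1%), Ces2b (55.7%) and Ces2f (62.2%), and C57BL/6J at Ces2g (47.5%). The flanking genes Lpcat2, at 0.880% in PWK/PhJ, and Slc6a2, at 0.881% in CAST/EiJ, passed at shares under that of the autosomes.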

How the results depend on the processing

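All 10 genes were called higher and 0 lower under every padding, state class, comparator and gene set tried, with each strain left out in turn, and with state 1 alone; the 180 values of single genes kept their direction and call in these settings. With a strain left out, the median disagreement ranged from 23.6% to 27.04%, the genes without state 3 at the start in any strain from 5 to 6 (6 without CAST/EiJ, the strain with state 3 at Ces1b), those with it in all strains stayed at 1, and those whose start changed class at 0. Read by the leading single state in place of the class, with ties going to the lower number, 5 genes changed at the start. The median disagreement of 25.7% became 18.7% where a match within 1 bin counted, 14.7% with classes in place of states, and 35.7% over marked bins alone; these follow from how each rule counts a difference. No paired analysis was possible because each strain has 1 segmentation and the replicate numbers of mice do not appear in it. Depth is unknown, so no counting error can be given. The states were not matched to marks, 3 genes have no strand, and 9 values set the precision.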

Other observations

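Ces2d-ps, the pseudogene of the second run, carried a block of state 1 of 2200 to 3000 bp at an end in all 9 strains and had 41.6% ± 5.16 of its bins in states 1 to 4 (SD, n = 9), above Ces2c and Ces2e in mean share. Ces5a, in the first run, held no bin of states 1 to 4. State 13 covered 40.98% to 73.2% of its bins in 8 strains and 0.976% in PWK/PhJ, where 98.1% was in state 14.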
